A study of Mus musculus with 2 samples.

Results

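Lumican-rich fibroblasts were 126 cells of injured mouse lung, 83 in a p47phox-KI library (KI) and 43 in a wild-type library (WT). The 2 libraries held 19593 barcodes, of which 15578 had 200 or more detected genes and at most 10% mitochondrial UMIs (transcript molecules counted once each by a unique tag). The cells were chosen by their raw UMIs. They had 3 or more UMIs of Lum, 3 or more summed over the fibroblast genes Col1a2, Col3a1 and Pdgfra, at most 1 of Lrat and at most 1 of Hhip. They also had at most 1 UMI summed over the smooth muscle genes Myh11 and Cnn1, at most 1 over the endothelial genes Cldn5 and Cdh5, and 0 of the epithelial gene Epcam and the leukocyte gene Ptprc. Levels of these 12 genes are therefore descriptions of the choice. Cells that met every condition but held 0 to 2 Lum UMIs, 925 in KI and 862 in WT, are called other fibroblasts.

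Each library came from lung of strain C57BL/6 labelled with acute lung injury, one of genotype p47phox-KI and one wild type. The lungs were perfused, digested with collagenase, cleared of erythrocytes, and sorted by CD45.2 and a stain for live cells before droplet sequencing of transcript 3' ends. The labels give neither the agent or time of injury, nor the gate of the sort, the number, age or sex of the animals, or the change made to the p47phox gene. Each genotype has 1 library, which leaves differences without a replicate check, so KI and WT below name these 2 libraries and no p-value is given.

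Lumican is a small leucine-rich proteoglycan, a secreted core protein that binds collagen fibrils and limits their width. Decorin, asporin, osteoglycin, osteomodulin and biglycan belong to the same family. In mouse lung such genes are prominent in adventitial fibroblasts, which sheathe vessels and airways, while alveolar fibroblasts lie in the walls of the air spaces. The protein p47phox, product of Ncf1, organises the phagocyte NADPH oxidase.

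The KI library held 43445797 UMIs in 9120 barcodes and the WT library 43376713 UMIs in 10473 barcodes. They shared 30 barcode sequences, none of which belonged to a lumican-rich cell. Lumican-rich cells held 547180 UMIs in KI and 276513 in WT, with medians per cell of 5673 and 6559 UMIs. Other fibroblasts were shallower, with medians of 2842 UMIs in KI and 2523 in WT. Levels are in CPM, a gene's UMIs over all UMIs of the summed cells on the usual scale, and intervals in square brackets are 95% limits that cover counting error only. Ncf1 had 0 UMIs in lumican-rich cells of KI and of WT, which allows up to 5.48 and 10.8 CPM (3 counts each), so the genotype could not be checked in these cells. The median mitochondrial share was 4.26% in KI and 4.93% in WT lumican-rich cells.

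Lum itself was read at up to 72 UMIs in a KI cell and up to 18 in a WT cell. The median over lumican-rich cells was 9 Lum UMIs in KI and 6 in WT, and 17 KI cells but 0 WT cells held 20 or more. Just inside the threshold, 7 KI and 11 WT cells had 3 Lum UMIs, and just outside it 14 KI and 12 WT cells had 2. Summed over lumican-rich cells the Lum level was 2063 CPM [1945, 2187] in KI and 1273 CPM [1143, 1413] in WT, and over other fibroblasts it was 15.5 and 16.7 CPM. A Lum UMI was found in 3.57% of KI and 3.48% of WT other fibroblasts. In endothelial cells, which should lack the gene, the share was 0.640% in KI at a median of 4083 UMIs and 0.362% in WT at 3645.5 UMIs.

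**Figure D1:**
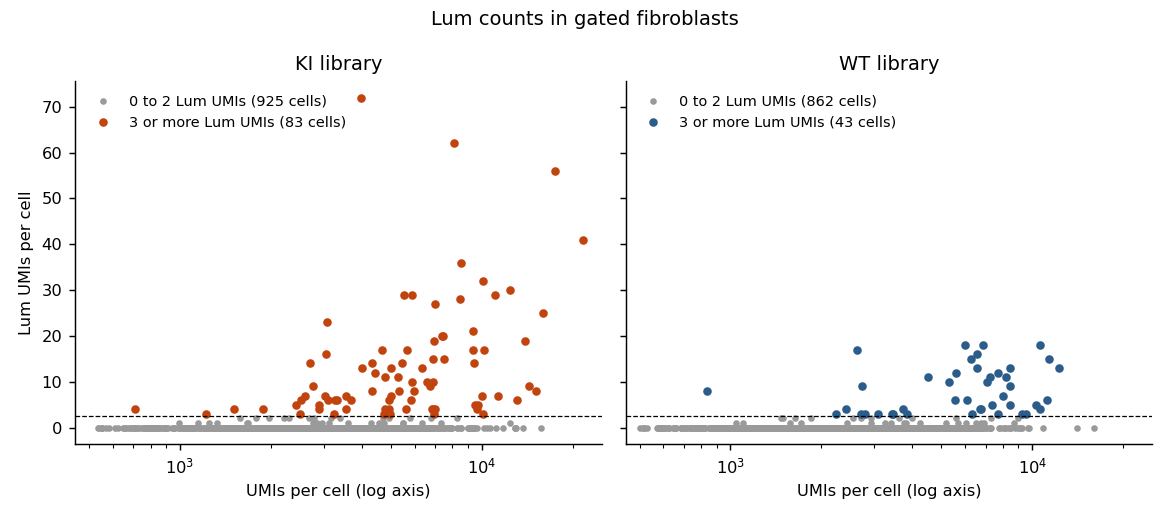
Lum UMIs per cell (vertical axis) against all UMIs per cell (horizontal log axis) for gated fibroblasts of the KI library (left) and the WT library (right); each point is a cell and the dashed line is the threshold of 3 UMIs. The 83 KI cells above the line reach 72 Lum UMIs, while the 43 WT cells reach 18.

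Lumican-rich cells made up 8.23% [6.61, 10.1] of gated fibroblasts in KI (83 of 1008) and 4.75% [3.46, 6.35] in WT (43 of 905), a log2 ratio of 0.79 [0.25, 1.36]. A fixed UMI threshold is met more easily by deep cells, so cells were also thinned to 2000 UMIs each, which left out 4 KI and 1 WT lumican-rich cells and 269 KI and 307 WT other fibroblasts that were shallower. The whole rule was then applied again to the thinned counts. Its upper limits, such as those on Hhip and Lrat, are met more easily at that depth. The thinned sets therefore also took in cells that the rule kept out at full depth. In them 7.35% of KI cells (57 of 775) and 2.47% of WT cells (17 of 687) were lumican-rich, a ratio of 1.57 [0.77, 2.45]. The limit of 3 Lum UMIs was kept, so it asked for a higher Lum share of a cell's UMIs than at the full median depths. With a limit of 5 Lum UMIs per 10000 UMIs on full counts, 94 of 1008 KI and 50 of 905 WT gated fibroblasts were lumican-rich. The rule did not take in all Lum transcripts. Lumican-rich cells held 49.1% of the Lum UMIs of the KI library and 37.9% of those of the WT library. Cells kept out by Hhip alone held 11.5% in KI and 10.3% in WT, and barcodes below the quality filters held 15.3% and 19.1%.

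The label names the markers Lum, Omd and Dcn. Dcn, which encodes decorin, stood at 16218 CPM in KI and 13992 CPM in WT lumican-rich cells, against 1532 and 1753 CPM in other fibroblasts. Dcn UMIs were present in 83 of 83 KI and 42 of 43 WT cells. Omd, which encodes osteomodulin, had 57 UMIs in 19 KI cells, 43.9% of them in a single cell, and 4 UMIs in 3 WT cells. Its level was 104 CPM [78.9, 135] in KI and 14.5 CPM [3.94, 37.0] in WT lumican-rich cells, against 45.7 and 18.7 CPM in other fibroblasts. Omd thus did not mark these cells in WT, and only 8 KI cells and 1 WT cell held 2 or more of its UMIs.

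Adventitial fibroblast markers were high in most lumican-rich cells. Of 15 such markers 14 were measured, meaning 50 CPM or more in either cell class of each library, and 13 of them were 1.5-fold or more higher than in other fibroblasts in both libraries, as were 10.5% of all genes measured. Pcolce2, a collagen-processing enhancer, was the exception, at 590.3 CPM in KI and 655 CPM in WT, against 829 and 791 CPM in other fibroblasts. Pi16 stood at 837 CPM in KI and 850 CPM in WT, against 131 and 141 CPM in other fibroblasts, and Ly6a (stem cell antigen 1) at 2014 and 2832 CPM, against 320 and 337 CPM. The UMIs of Pi16, Dpp4, Dpt, Clec3b, Mfap5, Cd34, Ly6a and Cd248 together came to 10 or more in 66 of 83 KI and 38 of 43 WT lumican-rich cells, but in 129 of 925 KI and 125 of 862 WT other fibroblasts. Thinned to 2000 UMIs per cell the counts were 34 of 57 KI and 12 of 17 WT, against 81 of 718 and 71 of 670. Of 14 alveolar fibroblast markers, 12 were measured, 0 were higher and 11 were lower in both libraries, as were 22.2% of all genes measured. Npnt, an integrin ligand, was at 49.3 CPM in KI and 86.8 CPM in WT, against 1269 and 975 CPM in other fibroblasts, and the transporter gene Slc7a10 had 0 UMIs in lumican-rich cells of either library.

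The other fibroblasts are a mixture that also contains cells with pericyte markers, the mural cells of capillaries. Of 10 pericyte markers 9 were measured, and 8 were lower in lumican-rich cells in both libraries (22.2% of all genes), with a sum of 272 CPM in KI and 192 CPM in WT against 2749 and 2360 CPM. In lumican-rich cells the smooth muscle markers summed to 177 CPM in KI and 79.6 CPM in WT, mesothelial markers to 29.2 and 21.7 CPM, and leukocyte markers to 47.5 and 75.9 CPM. Of the 7 mesothelial markers Msln, Upk3b, Wt1, Krt19 and Lrrn4 were at 0 in both libraries. Type 2 alveolar markers summed to 395 CPM in KI and 441 CPM in WT, with Sftpc UMIs in 75 of 83 and 33 of 43 cells, against 3345 and 2500 CPM in other fibroblasts. Haemoglobin UMIs numbered 3209 in KI lumican-rich cells and 0 in WT, and 3194 of them lay in a single KI cell, where they made up 46.0% of all UMIs. Without that cell the counts of differing genes below were within 1.5 times of those given.

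Lum lies on chromosome 10 (97565128 to 97572703, plus strand, GRCm38) near Dcn (97479609 to 97518143), while Ecm2, Aspn, Omd and Ogn lie side by side on the plus strand of chromosome 13. These 4 neighbours are shown because their ratios between the 2 cell classes differ although the genes are adjacent. The 250 bases before each start, from RefSeq on GRCm38.p6, run over chr13:49504560-49504809, chr13:49544193-49544442, chr13:49582212-49582461 and chr13:49607765-49608014. Capitals mark matches on either strand to 3 motifs. The TATA box was searched as TATAAA, the AP-1 site as TGANTCA, and the CCAAT box under its own letters. In Ogn the 2 TATA matches overlap and run together.
Ecm2: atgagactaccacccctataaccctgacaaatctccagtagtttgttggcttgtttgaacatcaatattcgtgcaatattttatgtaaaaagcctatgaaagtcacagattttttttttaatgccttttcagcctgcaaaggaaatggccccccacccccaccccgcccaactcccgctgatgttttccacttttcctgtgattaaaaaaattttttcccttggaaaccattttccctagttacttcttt
Aspn: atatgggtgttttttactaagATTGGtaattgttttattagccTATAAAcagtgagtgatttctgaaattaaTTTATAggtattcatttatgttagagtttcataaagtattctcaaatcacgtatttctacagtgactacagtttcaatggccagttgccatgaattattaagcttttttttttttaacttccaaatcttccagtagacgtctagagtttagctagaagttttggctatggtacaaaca
Omd: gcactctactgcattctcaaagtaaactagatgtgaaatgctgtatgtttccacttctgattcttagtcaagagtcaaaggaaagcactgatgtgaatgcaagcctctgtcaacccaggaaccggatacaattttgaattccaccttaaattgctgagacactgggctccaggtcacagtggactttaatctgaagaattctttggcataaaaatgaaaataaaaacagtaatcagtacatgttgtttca
Ogn: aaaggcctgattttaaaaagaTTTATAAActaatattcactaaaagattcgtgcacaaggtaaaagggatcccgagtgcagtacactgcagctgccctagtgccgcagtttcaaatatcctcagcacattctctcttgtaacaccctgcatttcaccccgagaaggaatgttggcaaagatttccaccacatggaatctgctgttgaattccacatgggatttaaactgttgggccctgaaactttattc
Aspn held 2 matches to TATAAA and 1 to CCAAT, Ogn held 2 to TATAAA, and Ecm2 and Omd held none. Among 32851 promoter windows of the same length, 12.4% held the TATA box, 33.8% the CCAAT box and 6.75% the AP-1 site. A match is a run of letters and no evidence of binding.

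Of the family members outside the rule, 7 were measured in the comparison of cell classes, and 4 were higher and 1 lower in lumican-rich cells of both libraries. Over all 3718 genes measured, 391 (10.5%) were 1.5-fold or more higher in both libraries and 827 (22.2%) were lower. The median log2 ratio was −0.20 in KI and −0.20 in WT, and ratios scaled to this median gave 568 higher and 618 lower genes, with the same 4 and 1 counts in the family. Since Lum counts of these same cells chose the members, such counts describe the cells and test nothing.

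Asporin, which binds collagen and TGF-beta, had the highest ratios of these 7 after decorin. Aspn stood at 607 CPM in KI and 564 CPM in WT, against 80.9 and 71.4 CPM in other fibroblasts, with log2 ratios of 2.91 [2.66, 3.15] and 2.98 [2.66, 3.30]. Ecm2, whose product is a leucine-rich matrix protein, stood at 146 and 188 CPM against 62.8 and 38.5 CPM. Podn, encoding podocan, stood at 111 and 101 CPM against 65.8 and 60.3 CPM. Prelp, whose product anchors basement membranes to connective tissue, was the lower one, at 203 and 159 CPM against 758 and 649 CPM. Ogn, encoding osteoglycin, was at 621 and 467 CPM against 888 and 953 CPM, log2 ratios of −0.51 and −1.02. Kera, encoding keratocan, had 0 UMIs everywhere. Thus the neighbours on chromosome 13 read higher (Aspn, Ecm2), lower in WT beyond 1.5-fold (Ogn), or without a common direction (Omd) in lumican-rich cells.

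**Figure D2:**
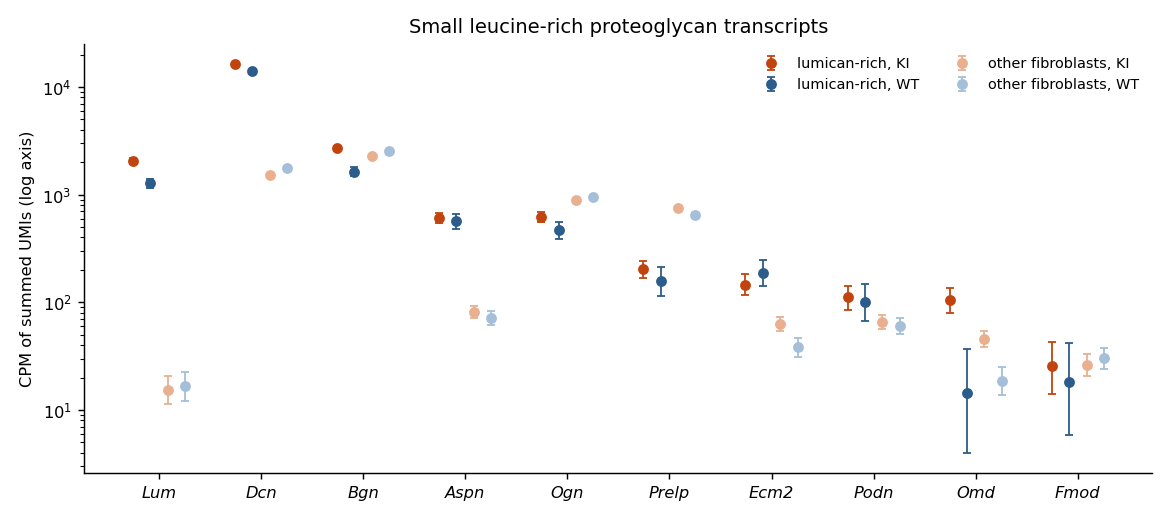
CPM of summed UMIs (vertical log axis) of 10 small leucine-rich proteoglycan transcripts in lumican-rich cells of KI and WT and in other fibroblasts of KI and WT; bars are 95% counting intervals. Aspn stands at 607 and 564 CPM in lumican-rich cells against 80.9 and 71.4 CPM in other fibroblasts, and Prelp shows the opposite order.

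The genes with the highest ratios to other fibroblasts included matrix and secreted proteins. Thbs4, encoding thrombospondin 4, had 111 CPM in KI and 148 CPM in WT, against 7 and 10 UMIs in all other fibroblasts together, log2 ratios of 5.51 [4.47, 6.97] and 5.17 [4.20, 6.39]. Its UMIs came from 9 KI and 16 WT lumican-rich cells, and from 1 and 2 other fibroblasts. Thbs2, a related matricellular gene, stood at 101 and 119 CPM against 5.26 and 5.56 CPM. The elastic fibre gene Emilin2 had ratios of 3.31 in KI and 3.72 in WT, and Fbln2 3.22 and 3.33. Among signalling genes, Ptn (pleiotrophin, a heparin-binding growth factor) had ratios of 5.11 in KI and 4.63 in WT, Angptl1 (angiopoietin-like 1) 4.65 and 5.46, and Sfrp4 (a secreted Wnt antagonist) 4.03 and 5.35. Penk, which encodes the opioid precursor proenkephalin, had 3.26 and 3.70, the ferritin receptor gene Scara5 3.20 and 3.76, and the proprotein convertase gene Pcsk6 3.17 and 4.50. Prg4, encoding the joint lubricant lubricin, had 3.09 and 5.15, since its level was 214 CPM in KI and 539 CPM in WT lumican-rich cells. Ifi207 had 3.97 and 4.20, but near-identical interferon-inducible paralogs may share its reads.

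The lowest ratios included signalling and lung mesenchyme genes. The soluble guanylate cyclase subunits Gucy1a1 and Gucy1b1, which sense nitric oxide, had log2 ratios of −4.94 and −4.04 in KI and −4.87 and −5.17 in WT. Gucy1a1 is also among the pericyte markers above, whose summed level was higher in other fibroblasts. Tbx2, a transcription factor of lung mesenchyme, had −3.64 and −3.79, and Npnt −4.66 and −3.46. Pdzd2, Ppp1r14a, Dtna and Retreg1 lay between −4.17 and −3.72 in both libraries except Pdzd2 in WT, at −4.72.

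**Figure D3:**
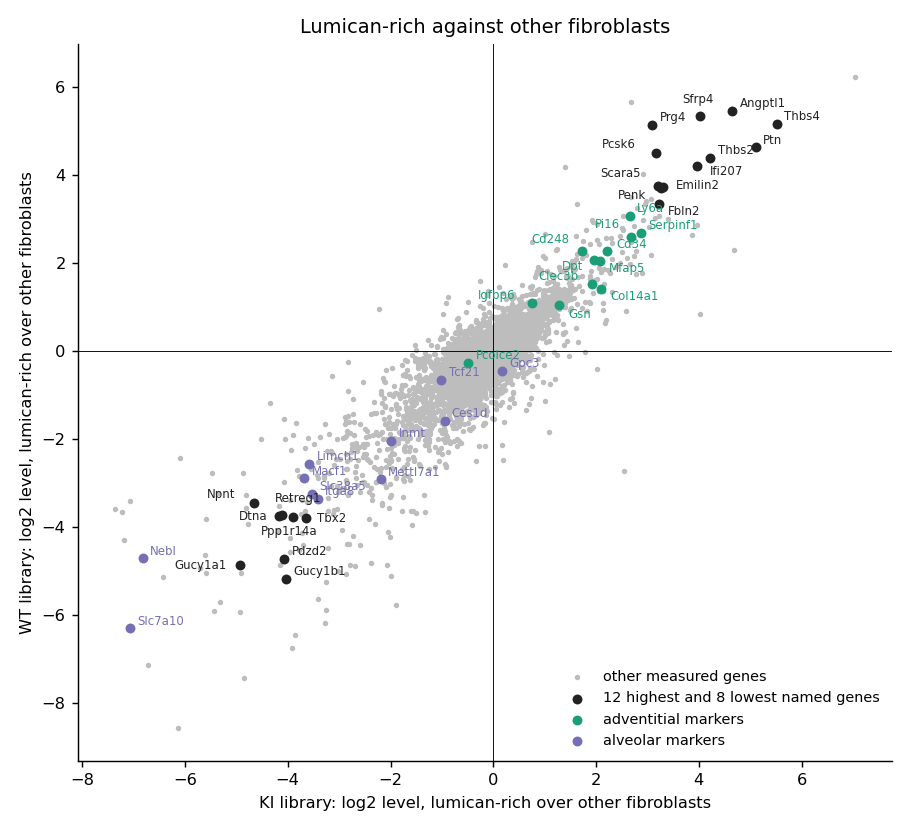
Log2 level in lumican-rich over other fibroblasts in the KI library (horizontal) and the WT library (vertical) for 3718 measured genes, with named genes in black (Scara5, Sfrp4 and Npnt among them), the other measured adventitial markers in green and alveolar markers in purple; 0.5 counts were added to each UMI sum, so the position of a gene at 0, such as Slc7a10, is no bound. Thbs4 and Ptn lie beyond 4 in both libraries and Gucy1a1 below −4, while the green points lie above 0 in both except Pcolce2, at −0.49 in KI and −0.27 in WT.

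The classes were compared again among cells with 10 or more UMIs over the 8 adventitial genes, a limit met by 13.9% of KI and 14.5% of WT other fibroblasts, in a step added after the data were seen. It set 66 KI and 38 WT lumican-rich cells against 129 and 125 other fibroblasts, with median depths of 6866 and 6822 against 4990 and 5016 UMIs. Then 161 of 3215 genes were higher and 324 lower, and 11 of the 12 leading genes stayed 1.5-fold or more higher in both libraries. Thbs4 had 53 UMIs in KI and 41 in WT lumican-rich cells, against 0 and 1. Ptn had log2 ratios of 2.93 and 4.75, Thbs2 2.64 and 3.66, and Aspn 2.34 and 2.16. Prg4 was the exception, with 0.23 [−0.42, 0.86] in KI and 3.24 [2.72, 3.82] in WT. Of the 8 lowest genes 5 stayed lower. Gucy1a1 read 0.75 [−0.52, 2.06] in KI and 1.58 [−0.60, 3.95] in WT, from 13 against 11 and 5 against 4 UMIs. Gucy1b1 read 1.64 [0.41, 3.10] and 0.19 [−2.51, 2.20], and Pdzd2 0.21 [−0.35, 0.77] in KI and −0.11 [−1.30, 0.88] in WT. The step did not even out every adventitial and alveolar marker. In its other fibroblasts Npnt stood at 532 CPM in KI and 389 CPM in WT, against 24.7 and 61.2 CPM in the lumican-rich cells. Ly6a had log2 ratios of 1.29 in KI and 1.68 in WT. Relative to the same other fibroblasts Omd read −0.54 [−1.40, 0.25] in KI and −0.85 [−3.46, 0.79] in WT. Of the proteoglycan genes that were higher above, Dcn (1.59 and 1.36) and Ecm2 (0.73 and 2.13) also stayed higher. Podn did not, at −0.07 in KI and −0.20 in WT.

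The genes whose UMIs ranked most like those of Lum over all gated fibroblasts included matrix and adventitial genes. Among 4418 genes detected in 10% or more of the cells, Dcn had Spearman correlations of 0.645 over 1008 KI cells and 0.543 over 905 WT cells. Serpinf1, encoding the anti-angiogenic protein PEDF, had 0.649 and 0.529, Fbln2 0.522 and 0.475, Cd9 (a tetraspanin) 0.548 and 0.412, and Igfbp4 (an IGF-binding protein) 0.488 and 0.411. Htra3, Ly6a, Thbs3, Cd34 and Cygb followed, between 0.357 and 0.495. These cells share a library and differ in depth, so the values are descriptive.

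Counts by gene group stand beside 10.5% higher and 22.2% lower among all genes measured. Growth factors were mostly low in lumican-rich cells. Of 18 measured, 12 were lower and 4 higher than in other fibroblasts, with Ptn the highest and with Kitl (stem cell factor), at 31.1 CPM in KI and 14.5 CPM in WT against 297 and 165 CPM, among the lower ones. Bmp3 had 3.66 and 10.8 CPM against 76.3 and 100.0 CPM. Of 17 lung stromal transcription factors 10 were lower and 3 higher, or 8 and 5 when scaled to the median, and the T-box genes Tbx4 and Tbx5 had log2 ratios of −2.86 and −2.86 in KI and −2.94 and −2.35 in WT. Of 19 matricellular genes 7 were higher and 7 lower. Spp1, encoding osteopontin, was at 78.6 and 10.8 CPM in lumican-rich cells, against 2299 and 2192 CPM.

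Of 7 measured chemokine-system genes 4 were higher and 1 lower, beside 10.5% and 22.2% of all genes. Ccl11, the eosinophil attractant eotaxin, stood at 578 CPM in KI and 662 CPM in WT, against 69.0 and 146 CPM, and the scavenger receptor gene Ackr3 at 74.9 and 101 CPM, against 9.53 and 9.53 CPM. Cxcl14 was the lower one, at 261 and 420 CPM against 926 and 1544 CPM. Of 11 complement genes 4 were higher and 1 lower, or 6 and 1 when scaled to the median, and the rest did not reach 1.5-fold in both libraries. C3 had log2 ratios of 1.20 and 1.20, and Cd55, which shields cells from complement, 2.91 and 4.02. The alarmin gene Il33 stood at 281 and 369 CPM against 34.2 and 52.0 CPM. Of the NADPH oxidase and superoxide genes, Nox4 was at 102 and 65.1 CPM against 327 and 206 CPM, and Cybb and Ncf4 had 0 UMIs in lumican-rich cells of both libraries.

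The comparison the series was built for is KI against WT, here within lumican-rich cells. Of 3598 genes with 50 CPM or more in either library, 513 (14.3%) were 1.5-fold or more higher in KI and 480 (13.3%) were lower, around a median log2 ratio of −0.03. These shares mix genotype, preparation, cell composition and counting error, which cannot be told apart with 1 library each. Among the members of the proteoglycan family outside the rule, 9 were measured, 3 were higher and 0 lower. Bgn (biglycan) stood at 2710 CPM in KI and 1635 CPM in WT, a log2 ratio of 0.73 [0.58, 0.88], against −0.15 in other fibroblasts. Dcn had a ratio of 0.21 and Aspn 0.10 [−0.17, 0.39]. The other higher members were Omd, at 2.69, and Chad. In other fibroblasts Omd read 1.28 [0.81, 1.80], and Chad had 29 KI and 0 WT UMIs.

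Some inflammatory and immediate-early genes were among the highest ratios. The wider inflammatory lists were mixed, beside 14.3% higher and 13.3% lower among all genes. Of 9 measured chemokine-system genes 3 were higher in KI and 4 lower, and of 7 prostaglandin and lipid mediator genes 1 and 3. Of 16 cytokine and receptor genes 3 were higher and 2 lower, of 10 NF-kB pathway genes 2 and 1, and of 6 type I interferon genes 2 and 1. Cxcl1, a neutrophil attractant, had 384 CPM in KI and 83.2 CPM in WT, a log2 ratio of 2.18 [1.58, 2.90]. Its UMIs came from 15 KI cells (18.1%) and 9 WT cells (20.9%), and a single KI cell held 39.0% of those in KI. Without the richest cell of each library its ratio was 2.05. Ptgs2, the inducible cyclooxygenase, had 144 and 28.9 CPM, a ratio of 2.24 [1.27, 3.58], from 17 and 5 cells. Irf1, an interferon-responsive transcription factor, had 146 and 28.9 CPM, a ratio of 2.26 [1.29, 3.60], from 29 and 5 cells. In other fibroblasts these ratios were 0.36, 0.18 and 0.10. Ahsg, encoding the plasma protein fetuin-A, had 56 UMIs in 14 KI cells and 2 UMIs in 2 WT cells, a ratio of 3.51 [1.90, 6.90]. Hexim1, Slc12a2, Tmpo, Rabep1 and Vps26a had ratios between 2.07 and 2.80, each on 6 or fewer WT UMIs.

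Of 22 measured immediate-early and dissociation stress genes, 11 were higher in KI and 0 lower, beside 14.3% and 13.3% of all genes, with a median ratio of 0.56, against −0.09 for the same genes in other fibroblasts. Atf3 stood at 305 CPM in KI and 90.4 CPM in WT, Myc at 87.7 and 28.9 CPM, Rhob at 428 and 148 CPM, and Klf2 at 473 and 184 CPM. Dissociation is known to induce such genes, and its part in the difference was not tested. Of 15 heat shock genes 4 were higher and 1 lower, beside the same shares, with Dnajb1, an HSP40 co-chaperone, at 163 and 21.7 CPM. Of 19 endoplasmic reticulum chaperone and unfolded protein response genes, 6 were lower and 1 higher, with a median of −0.39. Sdf2l1 stood at 27.4 CPM in KI and 86.8 CPM in WT, and Manf at 170 and 300.2 CPM.

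Matrix and lipid genes were read against the same shares, 14.3% higher and 13.3% lower. Of 5 fibrillar and fibril-associated collagens outside the rule, 3 were higher in KI and 0 lower. Col1a1 stood at 1753 CPM in KI and 1128 CPM in WT, a log2 ratio of 0.63 [0.45, 0.82], against 0.02 in other fibroblasts, and Col14a1 at 552 and 351 CPM. Of 11 other collagens 3 were higher and 3 lower, and Col8a1 had 54.8 and 206 CPM. Of 13 lipid handling genes 8 were higher and 3 lower. Plin3, a lipid droplet coat gene, stood at 74.9 and 21.7 CPM, the cholesterol exporter gene Abca1 at 111 and 50.6 CPM, and Ch25h, cholesterol 25-hydroxylase, at 11.0 and 112 CPM. The other fibroblasts had a median ratio of 0.34 for this list, against 0.68 in lumican-rich cells. Of 18 TGF-beta and activin genes 6 were higher and 2 lower, with Id3 at 1206 and 582 CPM and Tgfb2 at 38.4 and 105 CPM.

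The lowest KI over WT ratios included those of secreted and surface proteins. Ptx3, encoding the soluble pattern receptor pentraxin 3, had 67.6 CPM in KI and 1544 CPM in WT, a log2 ratio of −4.50. A single WT cell held 81.3% of the WT Ptx3 UMIs, and without the richest cell of each library the ratio was −2.68. Ackr4, a scavenger receptor for chemokines, had 9 UMIs in 7 KI cells and 38 UMIs in 10 WT cells, which is 16.5 and 137 CPM. Ccl7, a monocyte attractant, had 8 UMIs in 3 KI cells and 24 UMIs in 5 WT cells. Sema3e, a repulsive guidance cue, had 2 UMIs in 2 KI cells and 17 UMIs in 10 WT cells, and Dkk2, a Wnt regulator, 7 UMIs in 2 KI cells and 38 UMIs in 10 WT cells. Postn (periostin) stood at 87.7 CPM in KI and 405 CPM in WT, a ratio of −2.20 [−2.73, −1.71], and Thy1, a surface antigen of adventitial fibroblasts, at 32.9 and 152 CPM. In other fibroblasts the Postn ratio was 0.39 [0.29, 0.48], and those of Rgs7bp and Ptgs1 were also above 0, at 1.10 and 0.70. Other fibroblasts also read lower in KI for Ch25h (−1.94), Ccl7 (−1.81), Batf3 (−1.69), Ptx3 (−1.51) and Cdr2l (−0.80). Intervals there held 0 for Sema3e, Dkk2, Ackr4 and Thy1. Thinning to 2000 UMIs per cell, with the rule applied again, gave 57 KI and 17 WT cells, not all of them necessarily among the cells above. In these the ratios of Ptx3 (0.091), Ch25h (1.96) and Postn (0.87) were above 0, that of Ptx3 only just. Few UMIs of a gene remain in 17 WT cells of 2000 UMIs each. Cdr2l, Batf3, Rgs7bp and Ptgs1, the constitutive cyclooxygenase gene, had ratios between −2.65 and −2.46.

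**Figure D4:**
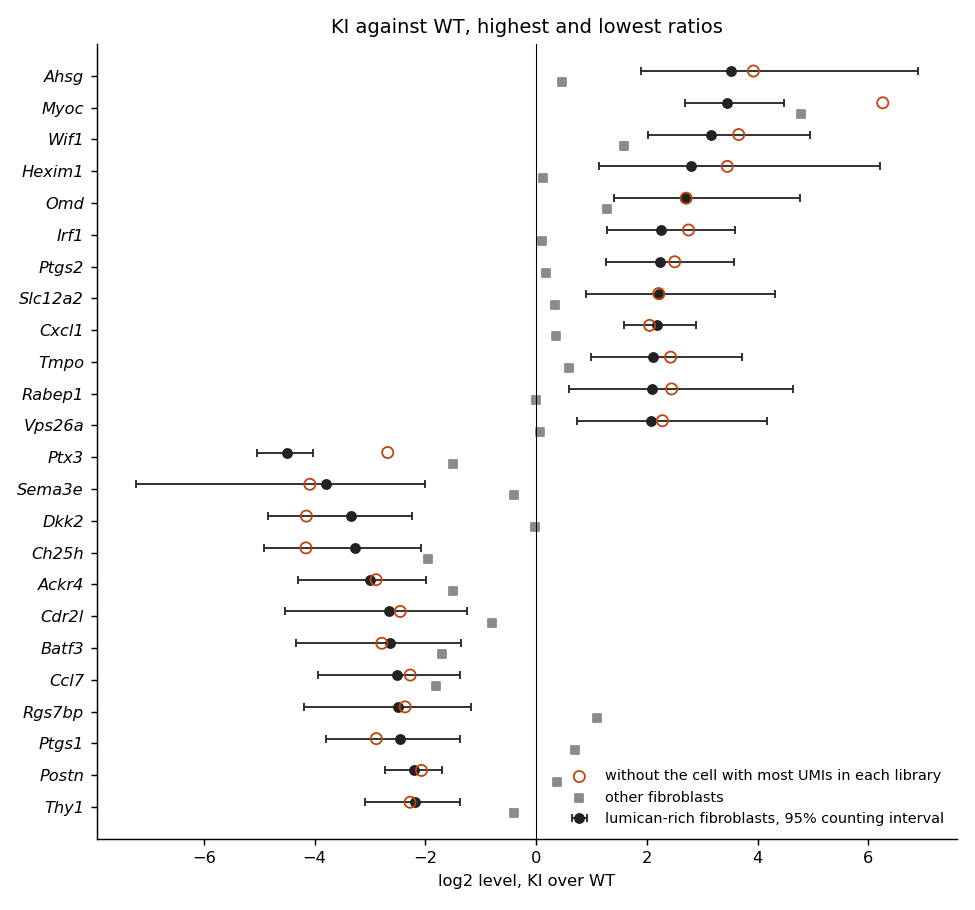
Log2 level in KI over WT (horizontal) for the 12 highest and 12 lowest named genes in lumican-rich cells; black points carry 95% counting intervals, open circles leave out the cell with most UMIs of the gene in each library, and grey squares are other fibroblasts. Ptx3 shifts to −2.68 without its richest cells, and the grey squares of Rgs7bp, Ptgs1 and Postn lie on the other side of 0.

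Some genes at each end of the KI over WT ranking had most of their UMIs in a few cells, which were looked at after the values were seen. In KI, 20 of 83 lumican-rich cells (24.1%) held 3 or more UMIs summed over Myoc, Chad, Wif1 and Comp, compared with 2 of 43 in WT (4.65%). These genes all read higher in KI lumican-rich cells and were picked with that known, so this contrast follows from their choice. Myoc encodes myocilin, Wif1 a Wnt inhibitor, and Chad and Comp are matrix genes of cartilage and tendon. Among other fibroblasts 10 of 925 KI and 3 of 862 WT cells passed the same limit. Myoc had 495 CPM in KI and 43.4 CPM in WT lumican-rich cells, a log2 ratio of 3.46 [2.68, 4.48]. Chad, with 127 UMIs in 12 KI cells and 0 UMIs in WT, was at least 21.4-fold higher, set against 3 counts in the summed WT cells. Other fibroblasts had the same direction, with Myoc at 4.79 [3.42, 7.30] on 116 KI and 3 WT UMIs. Wif1 read 1.59 [0.94, 2.35] there, Chad had 29 KI and 0 WT UMIs, and Comp had 2 and 0. The 20 KI cells held 41 of the 57 KI Omd UMIs. Their Pi16 level was 556 CPM against 906 CPM in the other 63 KI cells, and their Clec3b level 1131 against 2292 CPM. Only 8 of the 20 held 10 or more adventitial UMIs, and their median depth was 4395 UMIs against 5980. Thinned to 2000 UMIs per cell, 12 of 57 KI and 1 of 17 WT lumican-rich cells passed.

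In WT, 11 of 43 lumican-rich cells (25.6%) had UMIs of 3 or more of Sema3e, Dkk2, Ackr4, Ptgs1, Postn and Thy1, compared with 2 of 83 in KI (2.41%). The 6 genes were taken from the lowest KI over WT ratios, so this contrast follows from their choice. The UMIs of these genes also chose the 11 cells, so the counts here describe the choice. The 11 cells held 17 of 17 Sema3e, 37 of 38 Dkk2, 34 of 38 Ackr4 and 107 of 112 Postn UMIs of the WT lumican-rich cells. Thinned, 0 of 57 KI and 3 of 17 WT cells met the condition. All 11 held 10 or more adventitial UMIs, and 0 of them held 3 or more UMIs of Myoc, Chad, Wif1 and Comp. Their Ly6a level was 4435 CPM against 2047 CPM in the other 32 WT cells, Aspn 1123 against 291 CPM, and Col8a1 528 against 48.5 CPM. Ch25h, Batf3 and Cdr2l lay mainly outside them, with 0, 2 and 1 UMIs inside and 31, 18 and 16 outside. The median depth of the 11 cells was 8174 UMIs, and that of the other 32 was 6035 UMIs. Among other fibroblasts 0 of 925 KI and 1 of 862 WT cells met the same condition.

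**Figure D5:**
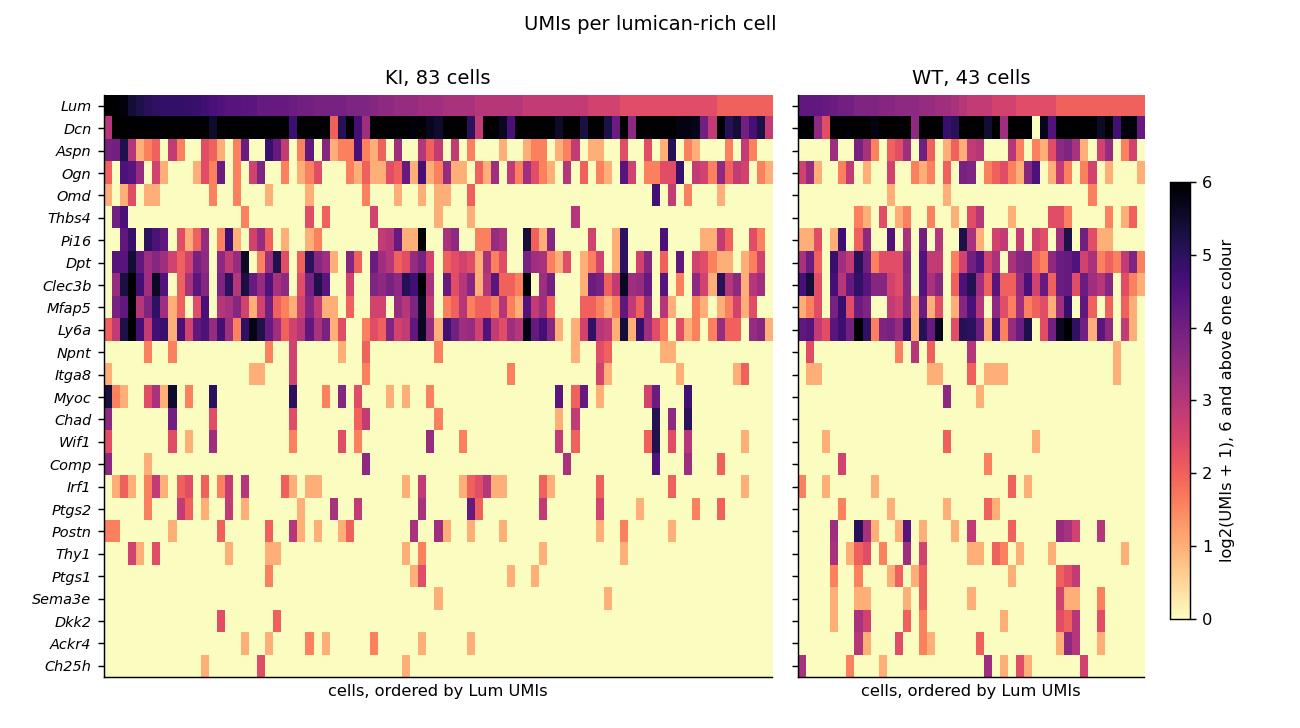
UMIs of 26 genes (rows) in each lumican-rich cell of KI (left, 83 columns) and WT (right, 43 columns), ordered by Lum UMIs; darker colours are more UMIs on a log2(UMIs + 1) scale. Myoc, Chad, Wif1 and Comp fall in shared KI columns, and Postn, Ptgs1, Sema3e, Dkk2 and Ackr4 in shared WT columns, while Dcn is dark in nearly all.

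Without the 20 KI and 2 WT cells of the first kind, the share of lumican-rich cells had a KI over WT log2 ratio of 0.49 [−0.10, 1.09]. Wif1 then read −0.26, from 3 KI and 2 WT UMIs. Without the 2 KI and 11 WT cells of the second kind, Sema3e and Dkk2 read 0.83 and 0.83 and Postn 1.55. Over all lumican-rich cells they read −3.79, −3.34 and −2.20. The UMIs that remained for Sema3e, Dkk2 and Postn were 2, 7 and 45 in KI and 0, 1 and 5 in WT. The cells left out were chosen by UMIs of these same genes, so such shifts follow from the choice. Single cells also set other values seen after the fact. Of 201 KI Cytl1 UMIs 199 lay in a single cell, of 170 KI Cxcl2 UMIs 162, and all 29 WT Tac1 UMIs lay in a single cell.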

How the data were processed

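For each library the deposited matrix gives UMI counts per gene and barcode, not normalized. Processing tools listed by the submitters were Cell Ranger 2.0, R 3.5.3 and Seurat 2.3.4, with the build mm10, and software version 3.0.2 stands in the matrices, per the file headers. Gene positions are from GENCODE M21 (GRCm38), with 30934 of 31053 identifiers matched.

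UMIs were summed per library and cell class (scipy 1.17.1). Ratios are log2 with 0.5 counts added. Levels have exact Poisson, shares Clopper-Pearson and ratios conditional binomial intervals. For KI over WT a gene was measured at 50 CPM in either library. Doublets were kept, and an alternative left out the highest Scrublet scores (scanpy 1.11.5). Steps were tested on simulated data.

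Named genes were the 12 highest and 12 lowest KI over WT ratios and the 12 highest and 8 lowest ratios to other fibroblasts, among genes with a UMI in 10% of lumican-rich cells of either library and not over 20 times higher in endothelial, epithelial or leukocyte cells. Rule genes, Xist, Tsix, Y-linked, mitochondrial, ribosomal, haemoglobin and unnamed genes were left out. Up to 4 genes per list, marker genes and the 10 genes most like Lum were added. Cells, markers and 33 lists were chosen with earlier results of these data known.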

Additional observations from a re-analysis of the deposited data

Results flagged for a closer look

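Rgs7bp and Ptgs1 had KI over WT ratios on opposite sides of 0 in lumican-rich cells and in other fibroblasts. For Rgs7bp, which binds regulators of G protein signalling, the log2 ratios were −2.49 and 1.10, from 6 KI and 18 WT UMIs in lumican-rich cells. For Ptgs1 they were −2.46 and 0.70, from 9 KI and 26 WT UMIs. The difference between the cell classes was not tested, as each genotype has 1 library, and 88.9% of the WT Rgs7bp UMIs lay in the 11 WT cells described above.

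Haemoglobin was outside the comparisons. Its 4 genes had 3209 UMIs in KI lumican-rich cells and 0 in WT, and 7147 and 6 in other fibroblasts. Outside 1 cell, KI lumican-rich cells held 15 UMIs.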

How the results depend on the processing

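The counts of KI over WT genes, 513 higher and 480 lower, became 192 and 179 at 100 CPM and 201 and 161 at 2-fold. With cells thinned to 2000 UMIs they became 921 and 2034 of 4679 genes measured, around a median log2 ratio of −0.37. The rule was then applied again and took in 57 KI and 17 WT cells. In 17 WT cells of 2000 UMIs each, very few UMIs of a gene reach 50 CPM, so these counts are not like the main ones. A limit of 20 UMIs in place of 50 CPM gave 1022 higher genes. Against other fibroblasts, 391 higher and 827 lower became 656 and 1902 at 20 UMIs, 215 and 464 at 2-fold, and 161 and 324 among adventitial-marked cells of both classes, with 438 lower at 100 CPM. The log2 share ratio ran between 0.49, without the Myoc, Chad, Wif1 and Comp cells, and 1.57, under thinning. Thinned, 3.51% of KI lumican-rich cells had 2 or more UMIs of Omd (9.64% unthinned), 86.0% of adventitial genes (96.4%) and 47.4% of alveolar genes (71.1%). In WT the shares were 0% for Omd (2.33%) and 58.8% for alveolar genes (81.4%).

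Thinning reversed Ptx3 (0.091), Ch25h (1.96) and Postn (0.87). Among adventitial-marked cells Gucy1a1 (0.75 and 1.58), Pdzd2 (0.21 in KI) and Gucy1b1 (1.64 and 0.19) no longer read lower. Their intervals held 0 except that of Gucy1b1 in KI. The cause was not tested. Without the marked minorities Wif1 (−0.26), Sema3e (0.83), Dkk2 (0.83) and Postn (1.55) also changed sign. Those minorities were chosen by UMIs of these same genes, so this follows from the choice. Over 14 alternatives, 299 of 336 values of the named KI over WT genes stayed within the counting interval of the main value, but 11 of 24 did so under thinning. For the named ratios to other fibroblasts 490 of 600 did, 20 of 40 under thinning and 4 of 40 among adventitial-marked cells. No paired analysis was possible because each genotype has 1 library. Depth limits the comparison most in WT, where 43 cells gave 276513 UMIs and 3 counts are 10.8 CPM.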
